A study of Mus musculus with 94 samples.

Results

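The genes that encode 9 surface proteins, grouped here as markers of mesenchymal stem cells (MSCs), were followed through the primary stem cells of perivascular fat (PV-ADSCs). The list comprises *Cd34*, *Cd44*, *Thy1*, *Nt5e*, *Vcam1*, *Alcam*, *Mcam*, *Cspg4* and *Kit*. Of these, 8 had a row among the 16069 genes of the deposited table, and *Nt5e*, the gene of CD73, was not analysed here. The cells came from the peri-aortic adipose tissue of mice labelled c57/bl and aged 8 weeks, all of a single untreated condition, and were sorted fresh as CD144-/CD45-/CD29+/Sca1+, where CD144 is the endothelial cadherin CDH5. Each of 85 cells in the table was a separate full-length cDNA library, out of 94 cells the series describes. No animal of origin is given for a cell, so the cells counted as 1 sample, and no p value or standard error was computed between cells. Each share is followed by its 95% interval (exact, Clopper-Pearson), which covers the counting of cells only.

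MSCs are recognised by panels of surface proteins because no single protein marks them. CD44 binds the matrix polysaccharide hyaluronan, CD34 is a sialomucin of progenitors, stromal cells and capillary endothelium, and THY1 (CD90) is a small glycoprotein anchored in the membrane by a lipid. VCAM1, ALCAM (CD166) and MCAM (CD146) are adhesion molecules of the immunoglobulin superfamily. CSPG4 (NG2) is the proteoglycan by which pericytes are usually identified, and KIT is the receptor for stem cell factor on hematopoietic progenitors and mast cells. In adipose tissue, CD34, CD44 and CD90 are the proteins most often used to sort stromal progenitors, whereas MCAM and NG2 are taken to mark perivascular cells.

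The cells were divided by decorin, a proteoglycan that fibroblast-like stromal cells secrete in large amounts. A deposited *Dcn* value of at least 1000 defined 58 stromal cells, and the other 27 cells lay below it. *Dcn* was not itself a member. The values were far apart, with a median of 93093 in stromal cells (range, 6521 to 365531) and 21.2 in the other cells (range, 5.17 to 269), so that 3 cells lay between 100 and 10000. Stromal marker genes separated most cells in the same way. *Col1a1* was above 0 in 57 of 58 stromal cells and 0 of 27 other cells, and at least 3 of 10 stromal markers, *Dcn* included, reached 10 reads in 57 stromal cells and 5 other cells. The cell closest above the threshold went against its class. Its *Dcn* value of 6521 came from 69 reads, only 2 of the 10 stromal markers reached 10 reads in it, and it had the fewest genes (850) and the fewest reads (1146951) of the stromal cells. It held no member at all, and it is counted in the denominator of every stromal share. Among the other cells, 24 of 27 held at least 3 of 15 endothelial markers at 10 reads, and *Cdh5* reached that level in 21 of them and in 1 stromal cell, although CDH5-positive cells had been gated out. The other cells are named only by their low *Dcn*, and *Ptprc*, the gene of CD45, was not analysed here. *Ly6a*, the gene of Sca1, was above 0 in 52 stromal cells and 21 other cells, and *Itgb1*, the gene of CD29, in 35 and 12 cells.

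Whole numbers of reads could be recovered from the deposited values. Of the 16069 genes, 10665 were whole reads as deposited, *Alcam*, *Mcam*, *Cspg4* and *Kit* among them, and 5404 were reads multiplied by a factor of the cell and group of genes, *Cd34*, *Cd44*, *Thy1* and *Vcam1* among them. Deposited values of these 2 sets of members are on different scales, so members were compared with each other by reads. Depth differed little between the classes, with a median of 2963854 recovered reads per stromal cell (range, 1146951 to 4776510) and 2714449 per other cell (range, 1727402 to 3655518). The number of genes above 0 did differ, with medians of 2813 (range, 850 to 4148) and 1416 (range, 285 to 2278). Most genes were accordingly found more often in stromal cells. Among the 11478 genes detected in 3 or more cells, 85.1% had a larger share of stromal cells, and the median difference in share was 9.32 percentage points. A difference of at least 30 points toward stromal cells was reached by 13.9% of these genes and one toward the other cells by 0.592%. These shares depend on the filter, as rarely found genes cannot differ by that much. With only the 6127 genes found in 10 or more cells kept, they rose to 26.1% and 1.09%, with a median difference of 18.97 points. The filter of 3 cells was passed by 6 members, which are *Cd34*, *Cd44*, *Thy1*, *Vcam1*, *Alcam* and *Mcam*. Of these, *Cd34* and *Cd44* differed by at least 30 points toward stromal cells, and 0 members differed as much in the opposite direction. *Cd34* and *Cd44* were found in 44 and 24 cells, so 26.1% is the closer comparison for them. *Cspg4* and *Kit* were found in too few cells to pass.

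The 8 members gave 116 values above 0 across the 85 cells, and these fell into 2 ranges of reads. In 22 values the gene had between 2 and 7 reads, in the other 94 it had at least 23 reads, and no value lay in between. At least 100 reads were present in 86 of them. The low range held 11 values in the 58 stromal cells and 11 in the 27 other cells, so it was more frequent per cell in the other cells. The high range held 89 values in stromal cells and 5 in the other cells. *Dcn* itself was above 0 in all 27 of the other cells at a median of 14 reads, and *Col3a1* in 24 of them, whereas *Col1a1* and *Clec3b*, which were above 0 in 57 and 48 stromal cells, were above 0 in 0 of the other cells. Where these low reads came from was not tested. Shares of the members are therefore given for values above 0 and again for at least 10 reads, a level that separates the 2 ranges. The further gene lists below are counted above 0, low reads included, with counts at 10 reads for some genes.

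**Figure D1:**
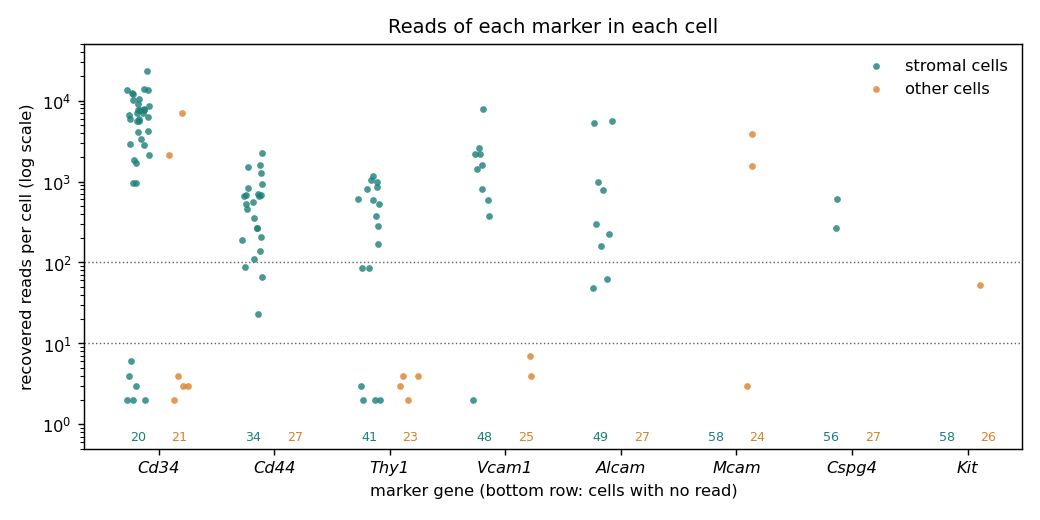
Recovered reads of each marker (vertical axis, log scale) in each cell with at least 1 read, for 58 stromal cells and 27 other cells. Each point is a cell, the numbers at the bottom count the cells with no read, and dotted lines mark 10 and 100 reads. The values of *Cd34* separate into 10 cells with at most 6 reads and 34 cells with at least 954 reads.

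*Cd34* was found in more cells than any other member and had the highest mean level per length over all 85 cells. It was above 0 in 44 of 85 cells (51.8%, interval 40.7% to 62.7%), in 38 of 58 stromal cells (65.5%, interval 51.9% to 77.5%) and in 6 of 27 other cells (22.2%, interval 8.62% to 42.3%). The reads fell into a high and a low range with none between. In the 32 stromal cells that reached 10 reads (55.2%, interval 41.5% to 68.3%), the deposited values had a median of 5774, and the reads ranged from 954 to 23286 with a median of 6808. The other 6 positive stromal cells held between 2 and 6 reads. The same was seen in the cells with low *Dcn*, where 2 cells had 2104 and 6976 reads and 4 cells had between 2 and 4 reads. The high values of these 2 cells thus lay within the range of stromal cells, and the cells held 10 and 9 of the 15 endothelial markers at 10 reads, respectively. The first also held *Rgs5*, a pericyte gene. Averaged over all cells of a class, log2(value + 1) was 7.05 ± 6.10 (SD, n = 58 cells) in stromal cells and 1.21 ± 3.34 (SD, n = 27 cells) in the other cells. Many cells had no read.

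*Cd44* was found in stromal cells only. It was above 0 in 24 of 58 stromal cells (41.4%, interval 28.6% to 55.1%) and in 0 of 27 other cells, which allows up to 3 cells (11.1%), with an exact upper limit of 12.8%. In contrast to *Cd34*, no cell held *Cd44* at the low range of reads. The 24 cells had between 23 and 2253 reads with a median of 539, and 21 of them had at least 100 reads. On the deposited scale these cells lay between 17.1 and 2235 (median, 551). The mean of log2(value + 1) was 3.58 ± 4.42 (SD, n = 58 cells) in stromal cells. Thus *Cd44* was found in fewer stromal cells than *Cd34* and, where present, had a lower median of reads.

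*Thy1* was above 0 in 17 stromal cells (29.3%, interval 18.1% to 42.7%) and 4 other cells (14.8%, interval 4.19% to 33.7%), but these numbers change with the level of detection. All 4 of the other cells held between 2 and 4 reads, as did 4 of the stromal cells at 2 or 3 reads. At 10 reads, *Thy1* was present in 13 stromal cells (22.4%, interval 12.5% to 35.3%) and in 0 of 27 other cells (exact upper limit, 12.8%). These 13 cells held between 86 and 1164 reads with a median of 591, and the highest deposited value was 2956. The interval of the stromal share overlapped that of the other cells at both levels of detection.

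*Vcam1*, whose protein holds integrin-bearing leukocytes to activated endothelium and marrow stroma, was above 0 in 10 stromal cells (17.2%, interval 8.59% to 29.4%) and 2 other cells (7.41%, interval 0.910% to 24.3%). Of the stromal cells, 9 held between 379 and 7812 reads with a median of 1608, and the tenth held 2 reads. The other cells held 4 and 7 reads, so 0 of 27 reached 10 reads. *Alcam*, which binds CD6 on T cells and to itself, was above 0 in 9 stromal cells (15.5%, interval 7.35% to 27.4%) and 0 other cells. Its reads were 48, 62, 160, 224, 298, 795, 975, 5294 and 5582. Most *Alcam* cells lay below 1000 reads, and the 2 highest cells stood apart from the rest.

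The remaining members were rare. *Mcam* was above 0 in 3 of the other cells (11.1%, interval 2.35% to 29.2%), with 3, 1549 and 3914 reads, and in 0 of 58 stromal cells, which allows up to 3 cells (5.17%), with an exact upper limit of 6.16%. The 3 cells held 11, 7 and 11 endothelial markers at 10 reads, respectively, and none of the 8 mural markers with data. *Cspg4* was above 0 in 2 stromal cells with 270 and 610 reads (3.45%, interval 0.420% to 11.9%) and in 0 of 27 other cells. In these 2 cells 1 mural marker each reached 10 reads, *Ndufa4l2* in the first and *Abcc9* in the second. *Rgs5* was above 0 in 0 stromal cells, and neither *Cspg4* cell held 10 reads of *Pdgfrb*. The smooth muscle marker genes were not analysed here. *Kit* was found in 1 of the other cells, with 52 reads (3.70%, interval 0.0937% to 18.97%), and in 0 of 58 stromal cells. That cell had 405 genes above 0 and held 0 of 15 endothelial markers at 10 reads, while the only mast cell gene with data, *Hdc*, was above 0 in 1 stromal cell and in no other cell.

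**Figure D2:**
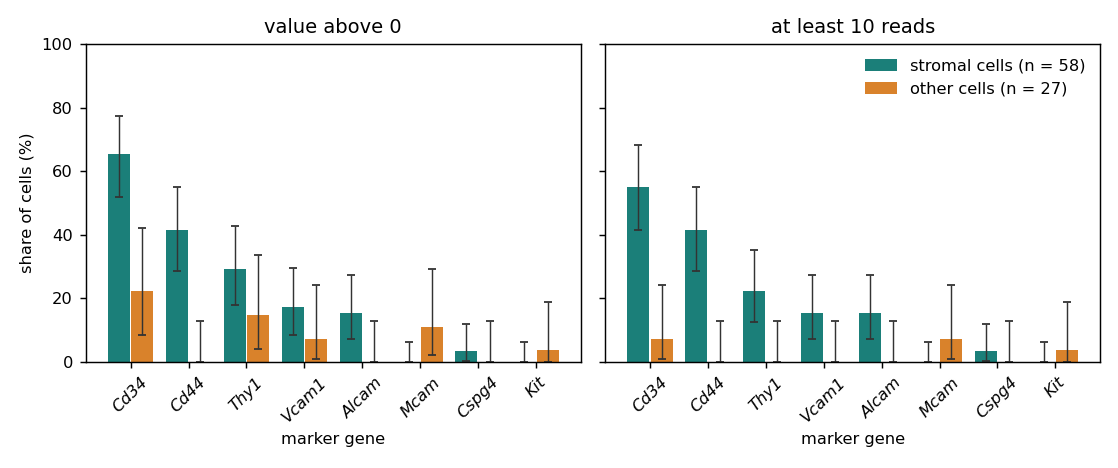
Share of stromal cells (n = 58) and other cells (n = 27) with each marker, for values above 0 (left) and at least 10 recovered reads (right), with exact 95% intervals as bars. *Thy1* and *Vcam1* fall to 0% of other cells at 10 reads, and *Cd34* falls from 22.2% to 7.41%.

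To compare levels between genes, reads were expressed per kilobase of annotated exons and relative to all recovered reads of the cell (RPKM). Averaged over all 85 cells, *Cd34* had 131 ± 209.9 RPKM (SD), followed by *Thy1* (10.5 ± 29.9), *Vcam1* (9.26 ± 36.9), *Cd44* (8.96 ± 20.04), *Mcam* (8.11 ± 59.2) and *Alcam* (6.32 ± 33.3). From *Thy1* to *Alcam* the means lay closer together than the SD of any of them, and that stretch of the order is not resolved. *Cspg4* (0.264 ± 1.80) and *Kit* (0.0188 ± 0.173) were lower. Among the cells that reached 10 reads, the median was 345 RPKM for *Mcam* in 2 cells, 284 for *Cd34* in 34 cells, 70.8 for *Thy1* in 13 cells, 57.5 for *Vcam1* in 9 cells, 27.5 for *Cd44* in 24 cells and 13.8 for *Alcam* in 9 cells. The range of *Cd34* in its positive cells, from 72.02 to 1037 RPKM, overlapped that of *Thy1* (11.3 to 143). *Cd44* (0.969 to 117 RPKM) overlapped both as well, and *Alcam* spread over 2.42 to 241 RPKM.

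The number of members per cell was examined next. At 10 reads, a stromal cell held 1.53 ± 1.01 of the 8 members (SD, n = 58) and a cell with low *Dcn* 0.185 ± 0.396 (SD, n = 27). No cell held more than 4. Among stromal cells, 8 held 0 members (13.8%, interval 6.15% to 25.4%), 23 held 1 (39.7%, interval 27.05% to 53.4%), 17 held 2, 8 held 3 and 2 held 4. Among the other cells, 22 held 0 members (81.5%, interval 61.9% to 93.7%), and 5 held a single member each, which was *Cd34* in 2 cells, *Mcam* in 2 and *Kit* in 1. When every value above 0 was counted, the mean was 1.72 ± 1.06 in stromal cells and 0.593 ± 0.636 in the other cells, and at least 1 member was present in 54 of 58 and 14 of 27 cells. With all cells thinned to the same 1146951 reads, the means were 1.66 and 0.481.

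The number of members followed the number of genes detected in a cell more closely than its depth. Within the 58 stromal cells, Spearman's rho between members at 10 reads and genes per cell was 0.54, compared with 0.04 for reads per cell. These are descriptions, as the cells come from 1 set of libraries and both counts are made from the same values. The median number of genes was 2261 in stromal cells with 0 members (range, 850 to 2724), 2697 with 1, 2910 with 2, 3487 with 3 and 3549 with 4. The median reads lay between 2788284 and 3051480 in these same cells. Why some cells held fewer genes was not tested.

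**Figure D3:**
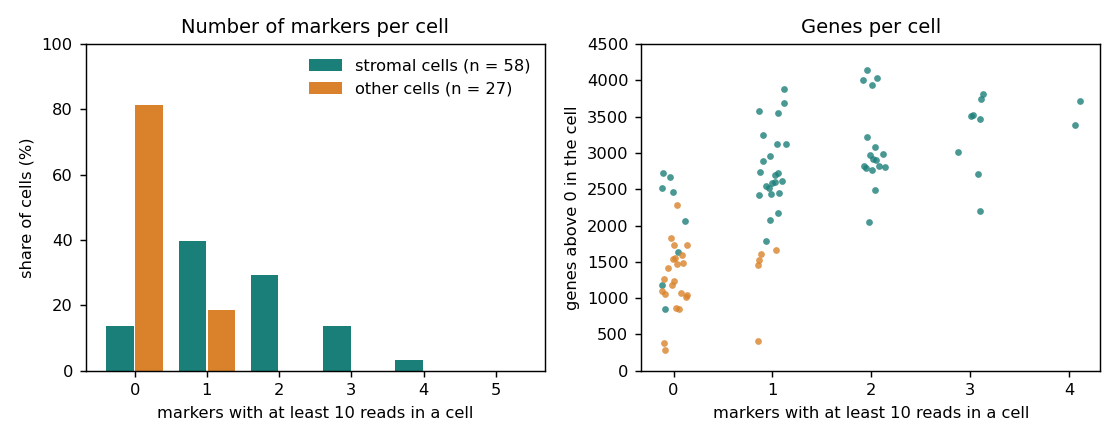
Left, share of stromal (n = 58) and other cells (n = 27) by the number of markers with at least 10 reads. Right, genes above 0 in each cell against that number, with a small horizontal offset for visibility. The stromal cells with 0 markers lie at or below 2724 genes, and the 2 cells with 4 markers at 3383 and 3715 genes.

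Within stromal cells the transcripts of the members did not form a single panel. Only RNA was measured, so a cell without reads of a member may still carry the protein. All cells were sorted as CD29+/Sca1+, yet *Itgb1* reached 10 reads in 34 and *Ly6a* in 52 of the 58 stromal cells. The 58 cells showed 20 combinations of members at 10 reads, counting the absence of all as a combination. *Cd34* alone and *Cd44* alone were the most frequent, with 9 cells each, followed by 8 cells without a member and 7 cells with *Cd34* and *Cd44* together. *Cd34* and *Cd44* were both present in 12 cells, which is 37.5% of the 32 *Cd34* cells and 50% of the 24 *Cd44* cells, whereas 58.8% of the 34 stromal cells without *Cd44* held *Cd34*. *Cd34*, *Cd44* and *Thy1* occurred together in 2 of 58 cells, which were also the 2 cells with 4 members.

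Of the 9 *Alcam* cells, 8 held *Cd34* (88.9%), compared with 24 of the 49 stromal cells without *Alcam* (48.98%). *Thy1* was likewise present in 5 of the 9 *Alcam* cells (55.6%) and in 8 of the 49 others (16.3%). By contrast, *Cd44* was present in 3 of the 13 *Thy1* cells (23.1%) and in 21 of the 45 cells without *Thy1* (46.7%). *Vcam1* and *Alcam* occurred together in 0 stromal cells, with 9 cells each at 10 reads. These differences rest on few cells of 1 sample and were not tested. When every value above 0 was counted, *Cd34* and *Cd44* shared 14 cells, which is 36.8% of the *Cd34* cells and 58.3% of the *Cd44* cells, and *Vcam1* and *Alcam* again shared 0 cells.

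**Figure D4:**
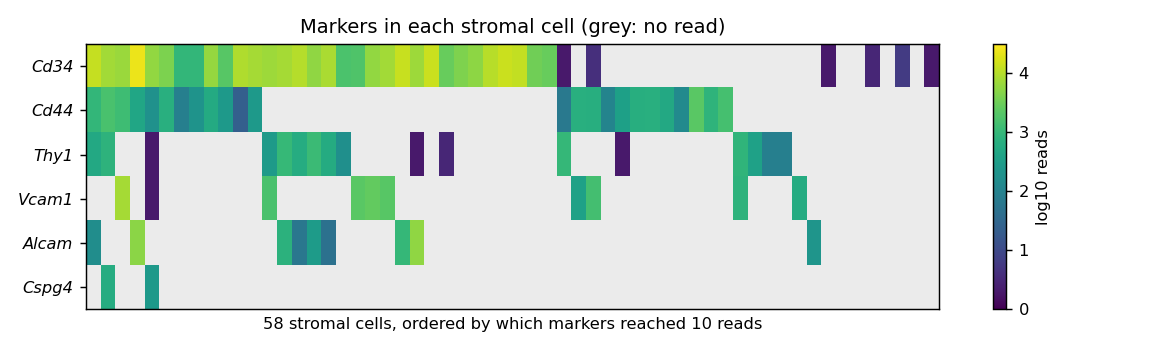
Recovered reads of 6 markers (rows) in each of the 58 stromal cells (columns), shaded on a log scale. *Cd34* spans 32 cells at 10 reads and *Cd44* 24 cells, of which 12 hold both.

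Across the stromal cells, the levels of the 4 members found in at least 10 cells were nearly unrelated to each other. Spearman's rho of the deposited values lay between -0.15 for *Cd44* and *Thy1* and 0.10 for *Cd34* and *Thy1* (n = 58 cells, which share their preparation). The 3 genes most like each member were then taken from 6126 genes over all 85 cells, a choice that favors large values. For *Cd34* these were *Plac9a* (rho = 0.65), *Plac9b* (0.59) and *Gm9780* (0.55), which are near-identical copies whose reads may be divided between them, so their values are uncertain. For *Cd44* they were *Sfxn1* (0.59), *Hk2*, a hexokinase of glycolysis (0.56), and *Vim*, the intermediate filament of mesenchymal cells (0.53). *Thy1* was most like *Ryk*, a Wnt receptor (0.46), *Tmed1* (0.45) and *Elavl1* (0.45). *Vcam1* was most like *Igsf3* (0.56), *Il1r1*, the interleukin 1 receptor (0.53), and *Bmper*, a regulator of BMP signals (0.51). The number of genes per cell had a rho of 0.51 with *Cd34*, 0.43 with *Cd44*, 0.23 with *Thy1* and 0.29 with *Vcam1* over the same 85 cells. Within stromal cells alone, *Plac9a*, *Sfxn1*, *Ryk* and *Igsf3* were among the 3 genes most like their respective member (rho = 0.57, 0.52, 0.52 and 0.59). *Plac9b*, *Tmed1*, *Elavl1* and *Il1r1* were so as well, whereas *Gm9780*, *Hk2*, *Vim* and *Bmper* were not, and *Park7* for *Cd34*, *Zcchc7* and *Osmr* for *Cd44* and *Cpeb4* for *Vcam1* took their places.

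Other surface genes were compared between stromal cells with and without the members at 10 reads. The comparison was not tested. *Ly6a* was present in 4 of these 8 cells and 48 of the 50 cells with a member. *Itgb1* was present in 1 and 33 cells, and *Pdgfra*, the platelet-derived growth factor receptor of fibroblasts and adipocyte progenitors, in 4 and 44 cells. As given above, these 8 cells also had fewer genes in general, and the part of this in the result was not tested. *Dpp4*, a peptidase on interstitial progenitors of adipose tissue, was present in 6 of the 9 *Alcam* cells and 11 of the 49 cells without *Alcam*, whereas it was present in 0 of the 9 *Vcam1* cells and 17 of the 49 cells without *Vcam1*. *Eng* (CD105), the endoglin coreceptor for TGF-beta, was present in 8 of the 32 *Cd34* cells and 1 of the 26 stromal cells without *Cd34*.

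Further genes of the same panels and pathways were followed by the share of cells above 0, to be read beside all genes compared. Of these, 85.1% had a larger share of stromal cells, with a median difference of 9.32 points. A difference of at least 30 points was reached by 13.9% toward stromal cells and 0.592% toward the other cells. With genes in fewer than 10 cells left out, the 4 figures were 91.3%, 18.97 points, 26.1% and 1.09%. The lists below were not filtered in this way and hold both widely and rarely found genes. Of 20 other MSC surface genes, 19 had a row, 16 had a larger share of stromal cells, and 9 differed by at least 30 points in that direction and 1 in the opposite one (median, 20.7 points). *Cd63*, a tetraspanin of late endosomes, was above 0 in 55 stromal and 7 other cells, and *Cd9* in 40 and 6 cells. *Pdgfra* was above 0 in 49 and 5 cells. Counted at 10 reads, *Cd63* was present in 51 and 0 cells, *Cd9* in 39 and 4 and *Pdgfra* in 48 and 0. *Cd200* went the opposite way, with 16 stromal cells (27.6%) and 16 other cells (59.3%). *Eng* did so as well, with 13 (22.4%) and 14 cells (51.9%), as did *Bst2* with 23 (39.7%) and 12 cells (44.4%). At 10 reads *Eng* was present in 9 and 12 cells and *Bst2* in 22 and 12. Among genes listed here as negative MSC markers, 5 of 11 had a row. Of these, *Cdh5* (7 stromal and 23 other cells) and *Pecam1* (14 and 17 cells) were endothelial genes with larger shares of the other cells. The remaining 3 had larger shares of stromal cells, with *Cd14* in 5 and 0 cells and *H2-Aa* and *H2-Ab1* in 1 and 0 cells each. *Cdh5* reached 10 reads in 1 and 21 cells and *Pecam1* in 4 and 16.

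Genes that act with the members were read against the same shares over all genes. These were 85.1% with a larger share of stromal cells and 13.9% past 30 points toward them. Over genes found in 10 or more cells they were 91.3% and 26.1%. Among 11 genes of hyaluronan and of CD44 and CD34 ligands, 9 had a larger share of stromal cells, which is no more than the 85.1% of all genes. Of the 11, 3 differed by at least 30 points (median, 12.1 points). *Tnfaip6*, which crosslinks hyaluronan, was above 0 in 40 stromal and 0 other cells, the hyaluronan synthase *Has1* in 31 and 5 cells, and the hyaluronan-binding proteoglycan *Vcan* in 30 and 0 cells. *Has1* reached 10 reads in 26 and 0 cells. *Podxl*, a sialomucin related to CD34, was above 0 in 3 and 9 cells. Of 11 genes of extracellular adenosine, the product of CD73, 10 had a larger share of stromal cells and 4 differed by at least 30 points (median, 10.1 points). *Entpd2*, which hydrolyses ATP upstream of CD73, was above 0 in 37 stromal and 2 other cells, and the nucleoside transporter *Slc29a1* in 25 and 0 cells. The adenosine receptor genes *Adora2a* (0 and 1 cells) and *Adora2b* (2 and 0 cells) were close to absent. *Adora2b*, and *Enpp1*, *Alpl* and *Ada* with 1 stromal cell each, count among the 10.

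For the adhesion molecules, 9 of 12 partner genes had a larger share of stromal cells, which is no more than the 85.1% of all genes. Of these 12, 4 were past 30 points toward stromal cells and 1 toward the other cells, beside 13.9% and 0.592% of all genes (median, 19.2 points). Over the genes found in 10 or more cells, the shares were 26.1% and 1.09% and the median was 18.97 points. *Lgals1*, a galectin, was above 0 in 56 stromal and 13 other cells, and the laminin chains *Lamc1* and *Lama4* in 43 and 6 cells and in 41 and 5 cells. The integrin chain *Itga4*, which pairs with *Itgb1* as the main receptor of VCAM1, was above 0 in 0 stromal cells and 1 other cell. *Itga9*, another integrin chain among these partners, was above 0 in 17 stromal and 0 other cells and reached 10 reads in 13 and 0. *Cav1*, the coat protein of caveolae, was above 0 in 22 stromal (37.9%) and 22 other cells (81.5%). *Cav1* reached 10 reads in 9 and 20 cells and *Lgals1* in 55 and 6. Of the 8 genes linked to KIT and NG2, 7 differed by at least 30 points toward stromal cells (median, 61.4 points), beside the same 13.9% and 26.1%. These included the collagen VI chains *Col6a1* (50 and 1 cells) and *Col6a2* (48 and 1 cells), which NG2 binds, although *Cspg4* itself was found in 2 stromal cells. *Col6a1* and *Pdgfra*, both counted here, are also among the 10 stromal markers that set the classes apart. *Pdgfra* and *Pdgfrb* were counted with the other MSC surface genes as well. So were *Dpp4* of the adenosine genes and *Itgb1*, *Itgav* and *Icam1* of the adhesion partners. *Pdgfra*, *Pdgfrb*, *Dpp4* and *Itgav* were past 30 points toward stromal cells, so the counts of these lists are not separate. *Kitl*, the gene of stem cell factor, was the exception, above 0 in 21 stromal cells (36.2%) and 14 other cells (51.9%), beside 0 and 1 cells with its receptor *Kit*.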

How the data were processed

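SMART-seq libraries of single PV-ADSCs were sequenced by the study. Per the labels and methods, the authors aligned reads to mm9 with HISAT2 2.0.5, used SAMtools 1.4 and StringTie 1.3.3, and removed cells of low depth. The deposited values are a signal, described by the authors as normalized read counts, for 85 of 94 described cells (9 had no column). They held whole reads for 10665 genes and scaled reads for 5404. The counting of reads per gene is not given in the sources used here.

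The scaled genes, all above 0 in at least 10 cells, carried a factor of the cell and of 1 of 13 groups of genes, which was divided out (factors, 0.0157 to 94.5), while another 723 genes above 0 in at least 10 cells carried none. Of 200972 values above 0, 200958 were whole reads within a relative tolerance of 2e-09 (6e-09 for genes without a factor). A value above 0 counted as detected, and 10 and 100 reads were alternatives. Stromal cells had a deposited *Dcn* value of at least 1000. Levels were averaged as log2(value + 1). RPKM used the length of all exons in GENCODE M21 and recovered reads. Genes above 0 in at least 3 cells were compared between classes, and a difference of 30 percentage points was called. Genes were named as all members, the sort genes, up to 5 genes per list with the largest share of stromal cells and up to 3 of the other cells, and the 3 genes most like each member found in at least 10 cells. Some genes outside this rule (*Adora2a*, *Adora2b*, *Itga4*, *Itga9*, *Bst2*, *Eng*, *Dpp4* beside the members, and the mural and mast cell genes) were chosen after their values were seen. The members and lists were chosen with earlier results of these data known. The cells are 1 sample, so no test was made. Intervals and floors (3 cells) cover counting error only. Computation used Python 3.11.15, numpy 2.4.6, pandas 2.3.3, scipy 1.17.1 and matplotlib 3.10.9, and scripts were tested on simulated data.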

Additional observations from a re-analysis of the deposited data

How the results depend on the processing

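Of 224 values recomputed under alternatives, 214 stayed, 10 moved and 0 reversed. Staying meant lying within the interval or spread of the value, or within a fixed ratio for counts of called genes. All 72 recomputed shares of stromal cells were among those that stayed. The mean number of markers per cell lay between 1.41 and 1.81 in stromal cells. In the other cells it was 0.593 and fell to 0.185 at 10 reads and 0.148 at 100 reads. These means were set against the SD over single cells, which for the other cells exceeds the mean, so staying within it says nothing about stability. The 56 recomputed differences in mean level were set against the SD of the gene over single cells. This SD exceeded the difference for every member, so staying within it again says nothing about stability. The difference of *Mcam* went from -0.909 to -0.305 with stromal cells taken at a *Dcn* value of 100. That of *Kit* went from -0.212 to 0 among cells with at least 1000 genes, and both counted as staying. A reversal was looked for in these 56 only. At 10 reads the share of other cells fell to 7.41% for *Cd34*, 0% for *Thy1* and 0% for *Vcam1*, and at 100 reads to 7.41%, 0% and 0%, with *Kit* at 0%. Among cells with at least 1000 genes *Kit* was at 0% of the other cells, since its cell was left out. A call at 50 points in place of 30 gave 486 genes toward stromal cells and 13 toward the other cells, in place of 1598 and 68. Changing the filter left 1598 toward stromal cells and 67 or 68 toward the other cells. Rarely found genes cannot differ by 30 points, so these counts could hardly move. Stromal cells defined by at least 1000 recovered *Dcn* reads, an alternative chosen after seeing the data, numbered 57, and this moved 0 of the values. No paired analysis was possible because there is 1 group. For *Mcam*, *Cspg4* and *Kit*, found in at most 3 cells, the number of cells limits the precision.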
